A study of Mus musculus with 12 samples.

Results

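The Krüppel-like factors (Klf) described here were Klf2, Klf3, Klf4, Klf5, Klf6, Klf7, Klf9, Klf10, Klf13 and Klf16, taken by gene symbol from a table of 17419 genes, in which all 10 were found. They were measured in wild-type NIH-3T3 cells, an immortalised line of mouse fibroblasts grown in culture with newborn calf serum. One group of 2 libraries received no 4-thiouridine (no4sU), and 5 groups of 2 libraries each received 800 µM 4-thiouridine (4sU) for 15, 30, 60, 90 or 120 min, so that 10 of the 12 libraries were labelled. 4sU resembles uridine, and cells use it in the RNA they make. The sequencing was SLAM-seq, in which iodoacetamide treatment of the RNA makes each incorporated 4sU read as C in place of U. From these conversions the authors estimated the new-to-total ratio (NTR), which is the part of a transcript's molecules made since 4sU was added. The series title gives the purpose as finding out how the length of labelling biases quantification, so the questions for the Klf genes were how much of each transcript was new at each time and whether its level shifted with labelling.

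Klf proteins bind GC-rich and CACCC-type promoter elements through a block of zinc fingers at the C terminus, and their other domains recruit coactivators or corepressors. Klf2, Klf4, Klf5, Klf6 and Klf7 act largely as activators, Klf3 recruits the CtBP corepressors, and Klf9, Klf10, Klf13 and Klf16 bind the Sin3a corepressor. Many Klf genes respond quickly to serum, hormones or stress, and several have short-lived transcripts. Klf6 and Klf10 are known as early response genes in cultured cells, and Klf4 is one of the factors used to reprogram fibroblasts to pluripotency.

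Read totals were between 9917026 and 13739380 per library. All 10 fibroblast markers reached a mean count of 100, with a summed level of 16097 to 19756 counts per 1000000 reads (CPM) per library. The 4 endothelial markers summed to 0.750 to 1.80 CPM. The 2 blood cell markers in the table summed to 4.28 to 6.88 CPM and the single epithelial one, Cdh1, reached at most 0.388 CPM. CPM values here are the deposited counts divided by library size after TMM scaling, and they are shares of the RNA sequenced. A lower level therefore means a smaller share, and in bulk RNA fewer cells expressing a gene and less RNA per cell cannot be told apart. The labels do not say that replicates A and B came from separate cultures, so p-values measure the spread between these libraries, which may be technical.

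Every Klf transcript was measured in all 12 libraries, with mean counts between 224 for Klf2 and 3544 for Klf4. In the GENCODE M21 annotation (GRCm38) all 10 are protein-coding genes spread over 10 chromosomes, among them Klf4 at chr4:55527143-55532466 and Klf16 at chr10:80567124-80577321 on the minus strand and Klf6 at chr13:5861482-5870394 on the plus strand. Per length, in the 15 min libraries, Klf4 was the highest at 115 ± 2.20 CPM per kb (SD, n = 2), above 94.4% of the 9065 genes whose mean count reached 100. Klf9, a gene induced by glucocorticoid and thyroid hormone, stood at 49.8 ± 3.01 CPM per kb and Klf6, a widely expressed injury-response factor, at 48.5 ± 2.56 CPM per kb, and their libraries overlapped. Klf3 (23.5 ± 0.388 CPM per kb) and Klf16 (22.9 ± 0.664 CPM per kb) followed and overlapped each other as well. Klf2, Klf10 and Klf5 had 12.1 ± 2.53, 10.9 ± 0.690 and 9.71 ± 0.0717 CPM per kb, of which Klf2 and Klf10 overlapped. The lowest were Klf13 with 6.76 ± 0.331 CPM per kb and Klf7, a factor of axon growth, with 6.37 ± 0.261 CPM per kb, which is above 22.6% of the same genes, and this pair overlapped too. Klf2 is best known from endothelium under flow and from resting T cells, and here its level lay near the middle of the genes measured, while the endothelial markers were close to 0.

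The promoters of a pair of members are shown because the Klf proteins themselves bind GC and CACCC boxes. The windows run from 250 bases before to 50 after the RefSeq start (GRCm38.p6), and the gene starts of the GENCODE M21 annotation lie inside both. The Klf2 window is chr8:72318812-72319111 and the Klf3 window chr5:64803271-64803570, both on the plus strand. Capitals mark the GC box, searched as GGGCGG. They also mark the CACCC box, for which the letters searched were CCACCC. In Klf2 they further mark a MEF2-like motif, which is CTA and TAG with any 4 bases between. All were searched on both strands.
Klf2: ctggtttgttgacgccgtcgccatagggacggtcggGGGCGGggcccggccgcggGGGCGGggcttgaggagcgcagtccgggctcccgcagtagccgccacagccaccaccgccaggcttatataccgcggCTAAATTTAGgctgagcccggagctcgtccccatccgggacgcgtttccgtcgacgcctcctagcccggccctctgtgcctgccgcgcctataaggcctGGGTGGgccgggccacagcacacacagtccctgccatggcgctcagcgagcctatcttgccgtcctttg
Klf3: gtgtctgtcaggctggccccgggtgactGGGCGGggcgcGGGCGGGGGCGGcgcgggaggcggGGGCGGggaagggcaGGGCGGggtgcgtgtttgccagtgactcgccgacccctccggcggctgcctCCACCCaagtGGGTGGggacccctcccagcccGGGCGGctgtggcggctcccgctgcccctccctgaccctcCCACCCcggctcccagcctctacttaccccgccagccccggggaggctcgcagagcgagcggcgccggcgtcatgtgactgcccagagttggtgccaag
Klf3 had 6 GC boxes and 3 CACCC boxes in this window, and Klf2 had 2 GC boxes and 1 CACCC box. Windows were found for 7 members, namely Klf2, Klf3, Klf4, Klf6, Klf7, Klf9 and Klf13. A GC box was in 6 of these 7 windows (all but Klf9) and in 35.7% of all 32851 windows, and a CACCC box in 4 of 7 (Klf2, Klf3, Klf7 and Klf13) and in 31.5% of all. The MEF2-like motif was in the Klf2 window alone of the 7, against 3.69% of all windows, and MEF2 factors downstream of the kinase encoded by Mapk7 are known activators of Klf2. TATAAA was in none of the 7 and in 13.6% of all. These are matches of letters and say nothing on whether a factor was bound.

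The Klf transcripts were made new quickly. Their median NTR was 0.0496 ± 0.0241 (SD, n = 2) after 15 min, 0.287 ± 0.0363 after 30 min and 0.678 ± 0.00428 after 60 min. It then reached 0.893 ± 0.00679 (90 min) and 0.979 ± 0.0195 (120 min). For the 9065 genes whose mean count reached 100, the medians at the same times were 0.0101, 0.0521, 0.155, 0.244 and 0.354. Each of the 10 members lay above the median of all genes in each of the 10 labelled libraries. At 60 min the lowest member, Klf16, had a mean NTR of 0.465 ± 0.0962, still above the 0.155 of all genes. No test was made of these ratios, since 2 against 2 libraries are too few for an exact permutation test to pass 0.05.

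Klf2, Klf10 and Klf6 were replaced fastest. The NTR of Klf2 was 0.189 and 0.119 in the 15 min libraries (replicates A and B), rose to 0.691 and 0.630 in those of 30 min and to 0.932 and 1.00 in those of 60 min, and was listed at 1.00 in all 4 libraries of 90 and 120 min. A listed value of 1.00 is the maximum of a posterior distribution at its edge: for Klf2 at 120 min replicate A the interval from the 0.05 to the 0.95 quantile was 0.916 to 0.998. Klf10, an early gene of TGF-beta signalling, had 0.126 and 0.0850 after 15 min, then 0.482 and 0.535 (30 min) and 0.980 and 0.916 (60 min). Klf6 started from 0.132 and 0.0650 (15 min), passed through 0.477 and 0.470 (30 min), 0.859 and 0.876 (60 min) and 0.986 and 0.969 (90 min), and was listed at 1.00 in both 120 min libraries. At 30 min both libraries of each of these 3 genes were above both libraries of the other 7, and the 90% interval of Klf6, the lowest of the 3, did not overlap that of Klf3, the next. Klf2 was above Klf10 and Klf10 above Klf6 in their values, although their 90% intervals overlapped.

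**Figure D1:**
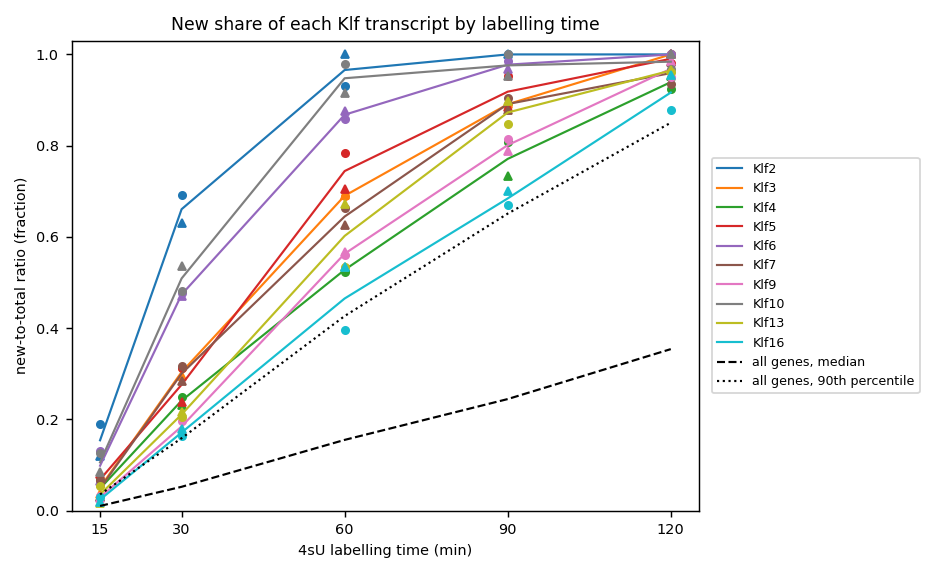
New-to-total ratio (fraction, vertical axis) of the 10 Klf transcripts against 4sU labelling time in min. Points are libraries (circle, replicate A; triangle, replicate B), coloured lines join the means of 2 libraries, and the dashed and dotted black lines are the median and the 90th percentile over the 9065 genes whose mean count reached 100. Klf2, Klf10 and Klf6 lie above the others at 30 min, and Klf16 has the lowest mean at each time.

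The other 7 members formed a closer series. At 30 min the NTR of Klf3 was 0.312 and 0.295, that of Klf7 0.316 and 0.285, and that of Klf5, a growth factor target in epithelium and smooth muscle, 0.313 and 0.239, so the 3 overlapped. Klf4 came next with 0.250 and 0.232, and Klf13, a regulator of chemokine transcription in lymphocytes, followed with 0.205 and 0.216. Klf9 (0.197 and 0.171) and Klf16 (0.163 and 0.179) were lowest and overlapped each other. Neighbours in this order were not separated by their 90% intervals at 30 min, other than Klf6 and Klf3.

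The order shifted with time among these genes. At 60 min Klf4 (0.522 and 0.533) ranked below Klf9 (0.560 and 0.566), with no overlap in values but overlapping intervals. Klf16 reached 0.397 and 0.533 (60 min), 0.669 and 0.700 (90 min), and 0.879 and 0.954 (120 min). After 90 min it was below Klf4, which had 0.809 and 0.733. By 120 min all members but Klf16, Klf4 and Klf7 had an NTR over 0.95 in both libraries, and each member overlapped its neighbour in rank. Replicate A was higher than replicate B at 15 min in 9 of the 10 members, Klf5 being the exception, as in Klf13 with 0.0537 and 0.0168. The median of all 9065 genes differed the same way, with 0.0134 in replicate A and 0.0067 in replicate B. The order of the members at 15 min was not resolved.

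A 3′ untranslated region (3′UTR) can carry AU-rich elements, motifs built on ATTTA in DNA letters, that are known to bring decay factors to short-lived transcripts. The sites are shown for the 3 genes with the highest NTR at 30 min and, for the longer form TTATTTATT, for the 2 members that have it. They come from the GENCODE M21 transcripts (GRCm38), whose length equals the deposited gene length for all 10 members. Each line gives the motif in capitals with 8 bases on either side and, after the gene name, the position of its first motif base in the 3′UTR.
Klf2, 81: agactgctATTTAttggacct
Klf10, 316: tttttgccATTTAtacttgag
Klf10, 602: cctcattaATTTAattgcttg
Klf10, 969: gtctttttATTTAtaggagtt
Klf10, 1332: actttcccATTTAaactattt
Klf6, 739: taagctgtATTTAcaaatcgc
Klf6, 907: cttaagccATTTAggcctggc
Klf6, 1029: gaatttgaATTTActtttttt
Klf6, 1219: cgtctcttATTTAtgccttga
Klf6, 1672: ccggctgtATTTAttatgtaa
Klf6, 2071: tatctttaATTTAatagtttg
Klf6, 2171: cttcggccATTTAgaaggggc
Klf5, 1340: ttttatcaTTATTTATTttgtggta
Klf16, 676: gaaagaaaTTATTTATTgtcctctc

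The number of these motifs did not follow the order of the NTR. Klf2, with the highest NTR at 30 min, had 1 ATTTA in a 3′UTR of 737 bases, or 1.36 per kb, just under the median of 1.41 per kb over 8934 genes. Klf16, with the lowest NTR, had 4 in 1797 bases (2.23 per kb), 1 of them in a TTATTTATT. Klf6 had 7 in 3111 bases (2.25 per kb) and Klf10 had 4 in 1492 bases (2.68 per kb). Klf7 had the most per kb with 18 in 6266 bases (2.87), and Klf13 the fewest with 3 in 5157 bases (0.582). All 10 members had at least 1 ATTTA, as did 72.3% of the 8934 genes, and 7 of 10 were above the median per kb. TTATTTATT was in the 3′UTR of Klf5 and Klf16 and of 8.46% of the genes. The U content of the whole transcript, which sets how many bases can be converted, ran from 19.4% in Klf2 to 29.6% in Klf6. Its median was 24.7% over the genes.

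An apparent half-life was computed from each NTR on the assumption of a constant level and a single decay rate, as ln 2 times the labelling time over −ln(1 − NTR). At 30 min it was 19.3 ± 2.29 min (SD, n = 2) for Klf2, 29.4 ± 3.14 min for Klf10 and 32.4 ± 0.448 min for Klf6. It was 57.5 ± 2.86 min for Klf3, 58.4 ± 5.17 min for Klf7, 65.8 ± 14.8 min for Klf5 and 75.5 ± 4.57 min for Klf4. Klf13, Klf9 and Klf16 had 88.0 ± 3.77, 103 ± 11.4 and 111 ± 8.13 min. For the members other than Klf10 the mean shortened with each longer labelling time that gave a value. For Klf6 the estimate was 114 ± 57.3 min from the 15 min libraries, 20.6 ± 0.935 min from those of 60 min and 16.3 ± 2.36 min from those of 90 min. For Klf16 the same libraries gave 448 ± 133, 68.4 ± 19.5 and 54.2 ± 3.23 min. Klf10 did not keep to this order: its estimate was 13.7 ± 4.34 min from the 60 min libraries, 20.6 min from 90 min replicate B and 24.1 min from 120 min replicate A, the only usable library at each of these times. No single half-life thus described a Klf transcript over the series, and the cause of the shift was not tested.

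The old part of each level, (1 − NTR) times CPM, does not need a constant level, and its decline was computed after the values above were seen. The old part of Klf6 was 184 and 184 CPM in the 15 min libraries, 103 and 102 CPM in those of 30 min, 21.7 and 20.2 CPM in those of 60 min, and 2.14 and 4.35 CPM in those of 90 min. From 30 to 60 min it therefore halved every 13.1 min, and the 4 pairings of a 30 min with a 60 min library gave 12.8 to 13.5 min. Over the same interval the old part of Klf10 halved in 9.16 min (6.11 to 12.1 min over the pairings) and that of Klf5 in 18.7 min (17.0 to 20.8). The old parts of Klf3, Klf13, Klf9 and Klf7 halved in 21.6, 26.5, 27.1 and 28.7 min. Klf4 (35.5 min, 29.8 to 43.7) and Klf16 (46.6 min, 36.2 to 63.3) were slowest. Klf2 is left out, because its old part was listed at 0 in 1 of the 60 min libraries. Between 60 and 90 min the values were shorter for Klf3 (17.9 min), Klf6 (11.2 min), Klf7 (16.3 min), Klf9 (23.3 min), Klf13 (18.4 min) and Klf16 (34.8 min), and also for Klf4 (28.3 min) and Klf5 (16.3 min). The ranges of the pairings in the earlier and the later interval were apart for Klf3 and Klf7 and overlapped for the other 6. All these ranges used the listed NTR alone and leave out its 90% interval. For Klf7 in 90 min replicate A that interval was 0.8355 to 0.9534. Klf10 ran the other way, with 26.2 min against the earlier 9.16 min, but its old part was listed at 0 in 1 of the 90 min libraries and the 2 usable pairings gave −21.1 and 34.2 min, so its later decline was not resolved.

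**Figure D2:**
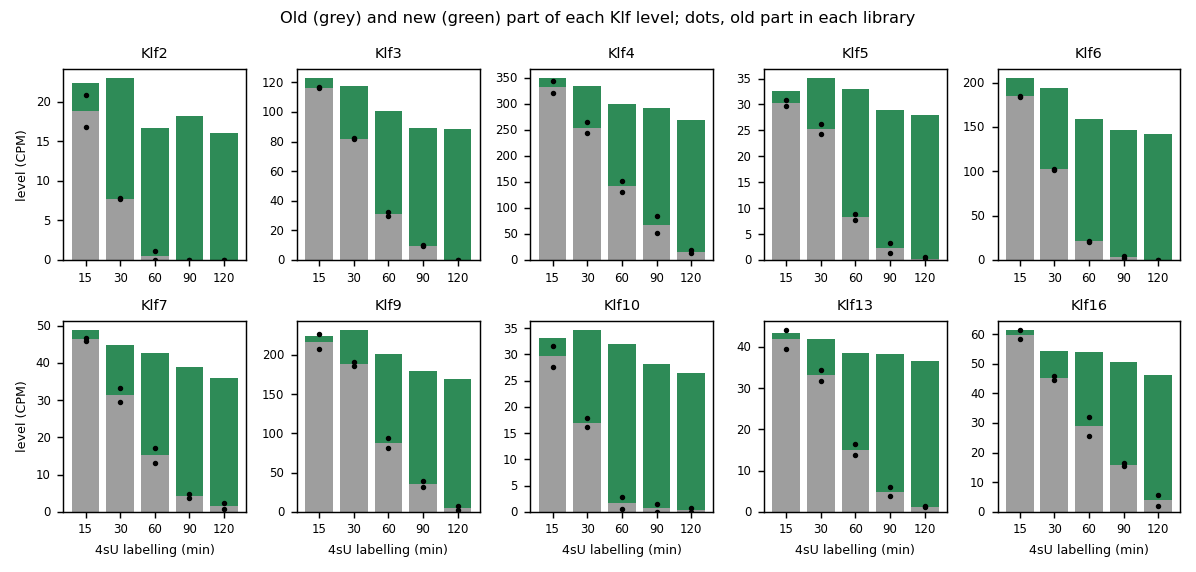
Mean level of each Klf transcript in CPM (vertical axis, its own scale in each panel) at 15 to 120 min of labelling, split into the old part (grey) and the new part (green) by the NTR. Dots are the old part in each of the 2 libraries. The old part is nearly gone by 90 min in Klf2, Klf6 and Klf10 and still visible at 120 min in Klf4 and Klf16.

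The new part of each level, NTR times CPM, cannot exceed the total level in the same library. In Klf6 and Klf4 it stayed below their total level without 4sU. In mean values this held for every member at each time, for example Klf3 with 88.7 CPM at 120 min against 115 CPM. The new part of Klf6 was 28.0 and 12.8 CPM (15 min), 93.7 and 90.4 CPM (30 min), 132 and 143 CPM (60 min), 151 and 136 CPM (90 min), and 144 and 139.7 CPM (120 min). From 60 min on these values overlapped between times, under the 189 and 212 CPM of total Klf6 in the no4sU libraries. For Klf4 the new part was 144 and 174 CPM after 60 min, 219 and 231 CPM after 90 min and 234 and 272 CPM after 120 min, each higher than before without overlap and below the no4sU level of 303 and 322 CPM.

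Levels at short labelling were compared with no4sU with edgeR's quasi-likelihood test and Benjamini-Hochberg adjustment over 11564 genes, with a threshold of 0.05. At 15 min 0 of 10 members passed (0.0% of all genes tested), with 1 member, Klf16, under an unadjusted p of 0.05 (5.34% of all genes) and 0 by DESeq2. At 30 min 0 of 10 passed (0.0% of all genes), with 0 under an unadjusted p of 0.05 (5.79% of all genes) and 0 by DESeq2. Klf16 was at 50.8 and 54.5 CPM without 4sU and at 60.0 and 62.5 CPM at 15 min, a log2 fold change of 0.21 ± 0.0789 (SE) with an adjusted p of 0.911. The no4sU libraries stood apart from each other for several members: Klf3 was at 102 and 129 CPM, Klf7 at 40.9 and 52.1 CPM and Klf9 at 192 and 234 CPM in replicates A and B. Without no4sU replicate B, 3 members (Klf3, Klf9 and Klf16) passed as higher at 15 min and 2 (Klf3 and Klf9) at 30 min. The 15 min libraries, in which at most 0.189 of any Klf transcript was new, were therefore used as a second reference.

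At 60 min 0 of 10 members passed against no4sU in edgeR (0.0173% of all genes, in either direction), with 3 (Klf2, Klf3 and Klf6) under an unadjusted p of 0.05 (7.74% of all genes) and 1, Klf6, by DESeq2. Klf6 was at 154 and 163 CPM, both below its no4sU libraries, with a log2 fold change of −0.34 ± 0.0647 (SE; adjusted p = 0.0696). Leaving out no4sU replicate A gave 2 calls (Klf3 and Klf6), as did leaving out no4sU replicate B (Klf2 and Klf6). At 90 min 2 of 10 members passed, both lower, where 0.943% of all genes were called lower. Klf6 fell by 0.45 ± 0.0655 on the log2 scale (adjusted p = 0.00135 in edgeR), with 153 and 140.4 CPM against 189 and 212 CPM. Klf3 fell by 0.38 ± 0.0829 (adjusted p = 0.0255), with 90.9 and 87.7 CPM against 102 and 129 CPM. Neither gene had overlapping groups. All 10 members had a log2 fold change below 0 at 90 min, as did 48.7% of all genes, with a median of −0.22 against 0.0051 over all genes. The signs of Klf4, Klf10, Klf13 and Klf16 each turned in a fit with 1 library left out. Without 90 min replicate B no member passed, without 90 min replicate A Klf6 alone did, without no4sU replicate B Klf2 and Klf6 did (Klf3 at −0.19, adjusted p = 0.0608), and without no4sU replicate A Klf7 and Klf9 passed beside Klf3 and Klf6.

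After 120 min of labelling the Klf transcripts were at lower levels than after 15 min. All 10 members had both 120 min libraries below both 15 min libraries, as did 32.7% of all genes tested, and 7 of 10 passed as lower, where 11.3% of all genes were called lower. Their median log2 fold change was −0.40, against 0.0057 over all genes tested. Against no4sU, 4 of 10 passed as lower, where 8.78% of all genes were called lower, with a median of −0.30 against 0.0065. These comparisons share the 120 min libraries and are not independent of each other.

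Of the activators, Klf6 and Klf2 had the lowest log2 fold changes, and their order was not resolved, since Klf2 was below Klf6 without 15 min replicate B (−0.67 against −0.58) and also without 120 min replicate B. The level of Klf6 was 212 and 197 CPM in the 15 min libraries and 144 and 139.7 CPM in those of 120 min, so that every 15 min library was far above every 120 min one. It fell by 0.53 ± 0.0653 on the log2 scale (edgeR, adjusted p = 4.50e-05), which means that it dropped by 30.7%, and against no4sU by 0.50 ± 0.0651 (adjusted p = 9.81e-05). Klf2 had 25.7 and 19.1 CPM in the 15 min libraries and 15.1 and 17.0 CPM in those of 120 min. Its 15 min libraries were far apart, and replicate B lay just above the 120 min ones. It fell by 0.47 ± 0.147 (adjusted p = 0.0288), and its difference from no4sU was −0.43 ± 0.146 (adjusted p = 0.0543).

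Klf4 had 344 and 354 CPM in the 15 min libraries and 253 and 286 CPM in those of 120 min, which did not overlap. It fell by 0.37 ± 0.0781 (adjusted p = 0.00283), while its difference from no4sU, at 303 and 322 CPM, was −0.21 ± 0.0781 (adjusted p = 0.0704). Klf7 had 50.2 and 47.4 CPM in the 15 min libraries and 35.4 and 36.6 CPM in those of 120 min. It fell by 0.44 ± 0.102 against 15 min (adjusted p = 0.00597) and by 0.38 ± 0.102 against no4sU (adjusted p = 0.0183). Klf5 had 32.7 and 32.4 CPM in the 15 min libraries and 28.5 and 27.5 CPM in those of 120 min, with a log2 fold change of −0.22 ± 0.0905 that did not pass (adjusted p = 0.0993), nor did its −0.24 ± 0.0893 against no4sU (adjusted p = 0.0720).

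Klf3, the CtBP-dependent repressor, was at 124 and 121 CPM (15 min), 119 and 117 CPM (30 min), 96.3 and 106 CPM (60 min), 90.9 and 87.7 CPM (90 min), and 90.0 and 87.4 CPM (120 min). Its libraries of 15 and 30 min were all above those of 60 to 120 min. It fell by 0.47 ± 0.0821 (adjusted p = 0.000850), and against no4sU by 0.39 ± 0.0819 (adjusted p = 0.00430).

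**Figure D3:**
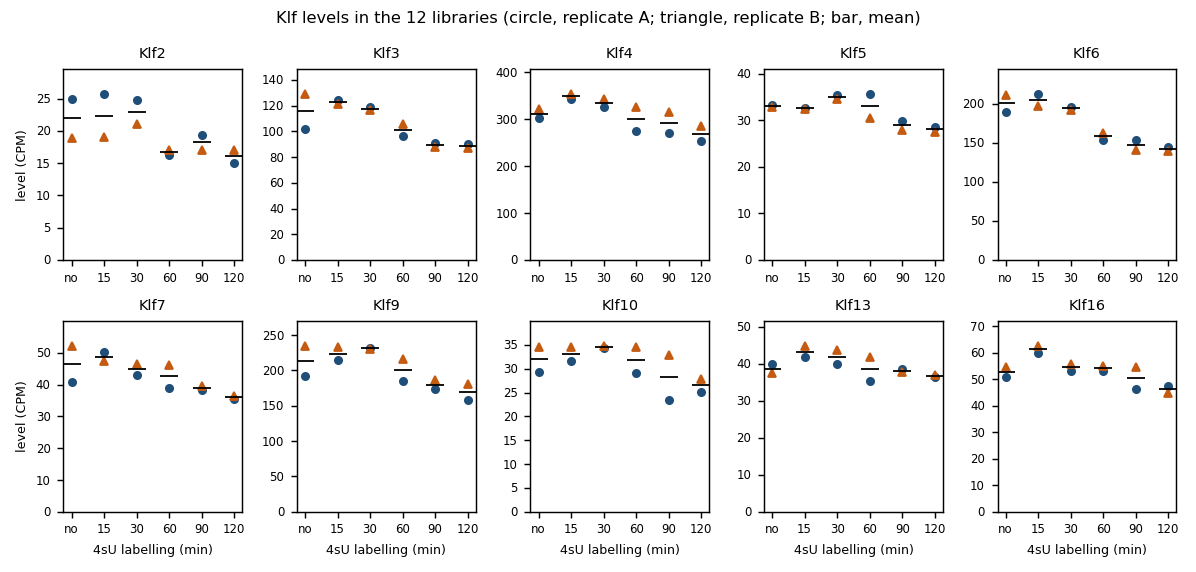
Level of each Klf transcript in CPM (vertical axis, from 0, its own scale in each panel) in the 12 libraries, by 4sU labelling time in min (no, no4sU). Circles are replicate A, triangles replicate B and bars the mean of 2 libraries. In every panel both 120 min libraries lie below both 15 min libraries, as they do for 32.7% of all genes tested.

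Among the members that bind Sin3a, 2 of 4 passed against 15 min. Klf9 had 214 and 233 CPM in the 15 min libraries and 158 and 181 CPM in those of 120 min. It fell by 0.40 ± 0.0867 (adjusted p = 0.00379) and against no4sU by 0.33 ± 0.0865 (adjusted p = 0.0154). Klf16 had 60.0 and 62.5 CPM in the 15 min libraries and 47.4 and 44.9 CPM in those of 120 min, and it fell by 0.41 ± 0.0803 (adjusted p = 0.00184). Against no4sU its difference was smaller, −0.20 ± 0.0808 (adjusted p = 0.105), and its 15 min libraries were above both no4sU libraries. The same held for Klf4 and for Klf13, which was at 39.8 and 37.5 CPM without 4sU. In Klf5 both 15 min libraries were below both no4sU libraries. Klf10 went from 31.6 and 34.5 CPM (15 min) to 25.1 and 27.9 CPM (120 min) (−0.31 ± 0.127, adjusted p = 0.0889). Klf13 went from 41.8 and 44.7 CPM (15 min) to 36.3 and 36.9 CPM (120 min) (−0.24 ± 0.0879, adjusted p = 0.0601). The groups of Klf10 and of Klf13 did not overlap, but neither gene passed, and against no4sU their differences were −0.27 ± 0.126 and −0.08 ± 0.0883. Without no4sU replicate A the difference of Klf10 from no4sU was −0.38 (adjusted p = 0.0145) and without no4sU replicate B −0.14 (0.544), and that of Klf13 was −0.0356 and −0.12.

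**Figure D4:**
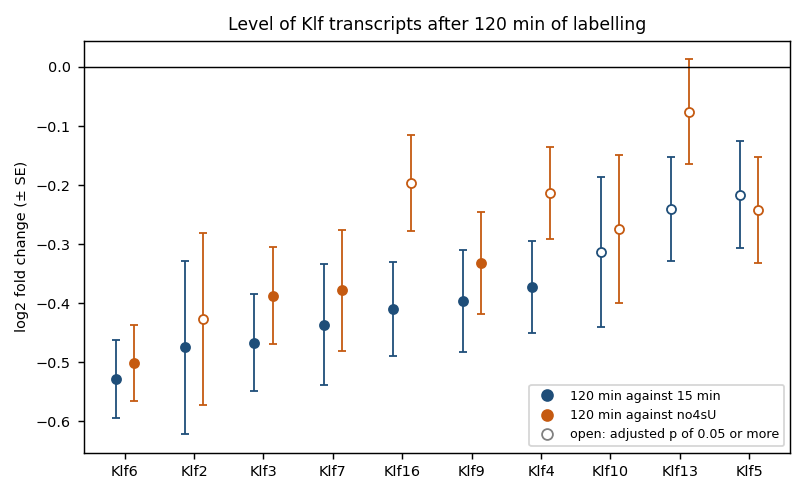
Log2 fold change of each Klf transcript at 120 min of labelling against 15 min (blue) and against no4sU (orange), with bars of 1 SE from the edgeR fit. Filled points passed an adjusted p of 0.05, and open points did not. All values are below 0, from −0.53 for Klf6 to −0.08 for Klf13 against no4sU.

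The calls of Klf3, Klf6 and Klf16 against 15 min did not hang on any single library, and the calls of the other 4 did. Leaving out 120 min replicate A left those 3 members as the only calls, with adjusted p-values of 0.0739 for Klf4, 0.0593 for Klf7, 0.0871 for Klf9 and 0.190 for Klf2. Without 15 min replicate A, Klf2 was at −0.24 (adjusted p = 0.404) and Klf7 at −0.39 (0.0812). Without 15 min replicate B, Klf9 was at −0.33 (adjusted p = 0.0643). Without 120 min replicate B, Klf2 was at −0.58 (adjusted p = 0.0842) and Klf7 at −0.47 (0.0512). Against no4sU, the call of Klf6 stayed without any single library. Without no4sU replicate B, Klf3 was at −0.20 and still passed, Klf7 was at −0.18 (adjusted p = 0.232), Klf9 at −0.17 (0.0883), and Klf2 passed at −0.63. Without no4sU replicate A, 7 members passed. Without 120 min replicate A, Klf3 and Klf6 passed, and without 120 min replicate B, Klf6 and Klf9 did.

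Transcripts that are mostly new after 120 min, the 10 Klf members among them, are given beside the members alone. The lowest 120 min mean NTR of a member was 0.916, and 592 genes had at least this NTR, a group described after the values were seen. Their median log2 fold change at 120 against 15 min was −0.27, with quartiles of −0.38 and −0.15, and 47.5% were called lower. The median of the 10 Klf genes was −0.40. Against no4sU the 592 genes had a median of −0.25 and 38.9% were called lower, where the Klf genes had −0.30 and 4 of 10. Klf3, Klf7 and Klf13 overlap annotated transcripts on the opposite strand, and the use of strand in counting is not given, so reads from these could not be told apart. On their own strand, Klf3 overlaps the annotated gene C230096K16Rik, Klf7 overlaps Mir6899 and Klf9 overlaps Mir1192.

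Fewer of the other Klf and Sp genes could be measured. As a background for the lists, 11.3% of all 11564 genes tested were called lower at 120 against 15 min, and 917 genes higher. Against no4sU 8.78% were called lower, and 628 genes higher. Of the 16 other Klf and Sp genes, 11 were in the table and 6 tested. Of these 1, Sp1, passed at 120 against 15 min, and the median of the 6 was −0.24. Against no4sU 1 was lower, Klf11, with a mean count of 92.1 (−0.46 ± 0.151, adjusted p = 0.0466 in edgeR), and the median was −0.17. Sp1, a widely expressed activator that binds the same GC boxes, fell by 0.26 ± 0.0757 (adjusted p = 0.0232), from 169 ± 5.17 to 142 ± 0.468 CPM (SD, n = 2), and its call was lost when any 1 of the 4 libraries compared was left out (adjusted p = 0.0863 to 0.155). Against no4sU Sp1 was at −0.18 and did not pass (adjusted p = 0.114). Of 16 signalling and transcription factor genes known to act on Klf genes, 8 were lower and 0 higher, with a median of −0.22, and against no4sU 4 were lower and 0 higher, with a median of −0.20. Mef2d fell by 0.37 ± 0.0698 (adjusted p = 0.00151), the glucocorticoid receptor gene Nr3c1 by 0.37 ± 0.0855 (adjusted p = 0.00513) and Mef2c by 0.73 ± 0.178 (adjusted p = 0.00794, at 8.86 and 5.35 CPM). Against no4sU Mef2d (−0.30) and Nr3c1 (−0.27) passed too, and Mef2c, at −0.36, did not (adjusted p = 0.196). Leaving out 1 library brought the count of 8 to 2 or 3, and Nr3c1 lost its call without 15 min replicate B (adjusted p = 0.0566) or 120 min replicate B (0.103), and Mef2c without 15 min replicate A (0.0992), 120 min replicate A (0.0546) or 120 min replicate B (0.0658).

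The 16 cofactors and turnover genes did not move one way, with 4 lower and 3 higher and a median of −0.04 (against no4sU 2 lower and 2 higher). Of all 11564 genes tested, 1311 were called lower and 917 higher at 120 against 15 min, and 1015 lower and 628 higher against no4sU. The coactivator gene Crebbp rose by 0.45 ± 0.0874 (adjusted p = 0.00166), while Ep300, which encodes the closely related acetyltransferase, fell by 0.30 ± 0.0802 (adjusted p = 0.0137) and the ubiquitin ligase gene Fbxo32 by 0.70 ± 0.187 (adjusted p = 0.0137). Against no4sU Crebbp (0.49) and Fbxo32 (−0.78) passed too, and Ep300, at −0.16, did not (adjusted p = 0.183). Without 15 min replicate A or 120 min replicate B, no gene of this list was called lower (Ep300 adjusted p = 0.138 and 0.160, Fbxo32 0.145 and 0.0534), and without 120 min replicate A Fbxo32 did not pass (0.122). Of 16 early response genes 6 were lower and 1 higher, with a median of −0.24 (against no4sU 5 lower and 1 higher, median −0.27). Nr4a1 fell by 0.61 ± 0.0954 (adjusted p = 0.000362), Ier5 by 0.37 ± 0.0612 (adjusted p = 0.000511) and Myc by 0.34 ± 0.0821 (adjusted p = 0.00780), and these 3 passed as lower against no4sU as well. Leaving out 15 min replicate A brought this count to 2 and 120 min replicate B to 3, and Myc then did not pass (adjusted p = 0.0777 and 0.161). In median NTR at 60 min the early response genes were above the Klf members, with 0.920 over the 12 whose mean count reached 100, against 0.678. Single genes overlapped: Klf2 had 0.966, and the early response gene Egr3, at 0.441, was below Klf16 at 0.465. The medians of the upstream genes (0.233 over 14) and cofactors (0.144 over 15) were below that of the Klf members.

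Some transcripts of other families had nearly the same course of NTR. Likeness was the root mean square difference in NTR over the 10 labelled libraries, and the genes were sought for the members with the highest 120 min NTR (Klf2, Klf3 and Klf6, tied at 1.00) and the lowest (Klf16). For Klf6 the nearest were Sgk1 at 0.0119, Ccn2 at 0.0135 and Jun at 0.0228. For Klf3 they were Zfp36l2 at 0.0203, Irs2 at 0.0214 and Arid5b at 0.0225. Klf2 was nearest to Ier3 at 0.0297, Myc at 0.0338 and Dusp6 at 0.0411, and Klf16 to Nfe2l2 at 0.0252, Spen at 0.0259 and Zfp639 at 0.0265. The level of such neighbours could still move another way: Ier3 rose by 0.39 ± 0.116 at 120 against 15 min (adjusted p = 0.0224), where Klf2 fell by 0.47. Against no4sU the difference of Ier3 was 0.20 ± 0.114 and did not pass (adjusted p = 0.256).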

How the data were processed

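SLAM-seq libraries of NIH-3T3 cells were grouped by the titles of the samples. The authors deposited 1 table with estimated counts per gene and library, of which 20.4% were not whole (tolerance 1e-06). They were rounded for the count tests. As the deposited NTR, a fraction, the table gives the posterior maximum (used here), the mean and 0.05 and 0.95 quantiles (a 90% interval), per the file headers. The deposited alpha and beta columns, a score each, were not used. Trimming and alignment tools named are cutadapt, Bowtie2 2.3.0 and STAR 2.7.10b, per the submitters' processing notes. The counting tool, build, annotation and use of strand are each not given in the sources used here. Reads that carry many conversions may be lost in alignment, and the table does not show such losses.

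The test was edgeR 4.0.16 under R 4.3.3: filterByExpr (11564 genes, all 10 Klf members), TMM (factors 0.970 to 1.02), 1 quasi-likelihood fit over all 12 libraries without covariates (biological coefficient of variation 4.44%), Benjamini-Hochberg adjustment and a threshold of 0.05. The SE is the absolute log2 fold change over the square root of F. The fit was tested on simulated data. Alternatives were DESeq2 1.42.0, other scalings, no filter, only the 2 groups compared, a replicate block, and leaving out libraries. CPM used the unrounded counts and TMM library sizes, and CPM per kb the deposited length in bases. Half-lives used NTR from 0.01 to 0.99. Python 3.11.15, numpy 2.4.6 and pandas 2.3.3 did the rest. 3′UTRs were known for 98.6% of the 9065 genes whose mean count reached 100. Of these genes 7056 were matched by exact transcript length, and for the others the longest coding transcript was used.

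All 10 members were named. Of the other lists, up to 3 genes past the threshold at 120 against 15 min were named, smallest adjusted p first, and 3 genes nearest in NTR for the members with the highest and the lowest NTR at 120 min. Ier3 and Klf11 were named in addition, after their values were seen. The members and lists were chosen with earlier results of these data known.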

Additional observations from a re-analysis of the deposited data

How the results depend on the processing

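Every log2 fold change of a member at 120 min stayed below 0, in 120 of 120 values against 15 min and 110 of 110 against no4sU. Alternative fold changes were compared for all members at 90 and 120 min, and for Klf2, Klf3 and Klf6 alone at 60 min. Those of the other members at 60 min were not compared. Of the 340 values compared, 279 kept direction and call, 24 lost the call, 33 gained it and 4 turned. The 4 that turned were all at 90 min against no4sU. Klf13 was at 0.0187 without no4sU replicate A and at −0.0604 without replicate B. Klf4, Klf10 and Klf16 were at 0.0103, 0.0316 and 0.0448 without 90 min replicate A and at −0.22, −0.46 and −0.19 without replicate B. Leaving out 1 library gave 0 to 3 members called at 15 min, 0 to 2 at 30 min, 0 to 2 at 60 min, 0 to 4 at 90 min and 2 to 7 at 120 min against no4sU, and 3 to 6 at 120 against 15 min. With library size alone 1 member was called at 60 min (Klf6), 8 at 120 min against no4sU and 10 against 15 min. With no filter 1 was called at 60 min (Klf6), and with DESeq2 also 1. With only the 2 groups compared, 0 were called at 90 min, 1 (Klf6) at 120 min against no4sU and 10 against 15 min. A fit of 120 against 15 min without both no4sU libraries, added after seeing the data, called 9. Of the lists at 120 against 15 min, the Klf and Sp relatives had 2 lower calls with library size alone, 3 with only the 2 groups compared and 3 without both no4sU libraries, and 0 when any 1 library was left out. DESeq2 called 1 cofactor gene and 5 upstream genes lower. Leaving out 1 library gave 0 to 2 lower cofactor genes, 2 to 3 upstream genes and 2 to 4 early response genes. The cause of these shifts was not tested. Shares of all genes called were computed for the main fit alone. Counts of members called under any other setting, here and elsewhere, therefore do not set the Klf genes apart from other genes.

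With the replicate block, 8 members were called at 120 against 15 min, 6 at 120 min against no4sU, 2 at 90 min and 0 at 15, 30 and 60 min. The block added Klf10 to the calls against 15 min (adjusted p = 0.0302) and Klf2 and Klf4 to those against no4sU. The labels do not say what the letters A and B stand for. Over 15 pairs of groups the correlation of the A to B deviations ran from −0.129 to 0.15, and 3 were over 0.1. With the posterior mean in place of the posterior maximum, 4 mean NTR values of a member moved by more than the SD of the 2 libraries. With the posterior mean or wider NTR limits, 6 mean half-lives did. Where only 1 library gave a half-life, any change counted as a move. Values with 1 library left out were not compared with this spread. With 2 libraries a group, NTR differences between neighbouring members could not be resolved beyond the gaps given.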
